A study of Rattus norvegicus with 15 samples.

Results

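The miR-17-92 cluster and its paralogues were followed in rat cardiomyocytes through 6 probes of an nCounter panel that held 420 rat miRNA probes. The 6 were chosen by name, with earlier results of these data known: rno-miR-17-5p, rno-miR-19b, rno-miR-20a+rno-miR-20b-5p (1 probe deposited for both miRNAs), rno-miR-25, rno-miR-93 and rno-miR-106b. All 6 lay above background often enough to be tested. The assay ligates a tag to each miRNA and counts the tagged molecules one by one through fluorescent barcodes. The RNA came from isolated adult cardiomyocytes of Sprague Dawley rats, 15 samples in 5 groups of 3, each read in 1 lane. Cells of healthy hearts received either saline vehicle or doxorubicin (DOX) in culture for 6 h. The other cells came directly from hearts: healthy age-matched controls, rats made to fail by repeated DOX injection, and rats 4 weeks after myocardial infarction (MI) by ligation of the left coronary artery. Every group was plated on laminin for 1 h, and unattached cells were discarded before RNA extraction, so only cells that still attached were measured. The labels give no DOX dose and no age. Nor do they state that samples 1 to 3 of a group were different rats or cultures, and the p-values then cover only the spread among the samples given.

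The 3 clusters are short stretches from which several miRNA hairpins are transcribed together, and their miRNAs are among the best studied regulators of the cell cycle. The miR-17-92 cluster is known as a target of Myc and E2F, and it promotes proliferation of cardiomyocytes in the growing mouse heart. The miR-106b-25 cluster lies in an intron of Mcm7, a replication licensing gene, and is known to restrain the cell-cycle inhibitor p21. A miRNA finds its targets mainly through its seed, so members of different clusters with a common seed have many predicted targets in common.

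The mature sequences below show which members share a seed and how little some of them differ. They were taken from RefSeq on the GRCr8 assembly, with the seed (bases 2 to 8) in capitals, and all 7 mature miRNAs behind the 6 probes matched. For the probe names that give no arm (miR-19b, miR-25, miR-93 and miR-106b), the arm shown is an assumption.
rno-miR-17-5p: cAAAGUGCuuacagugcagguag
rno-miR-20a-5p: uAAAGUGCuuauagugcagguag
rno-miR-20b-5p: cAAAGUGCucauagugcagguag
rno-miR-93-5p: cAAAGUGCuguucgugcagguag
rno-miR-106b-5p: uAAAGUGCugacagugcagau
rno-miR-19b-3p: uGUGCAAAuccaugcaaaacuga
rno-miR-25-3p: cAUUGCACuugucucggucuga

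The seed AAAGUGC was common to 5 of the 7 mature miRNAs, miR-17-5p, miR-20a, miR-20b, miR-93 and miR-106b. The seeds of miR-19b and miR-25 each stood alone among the members. On chromosome 12, minus strand, miR-106b (chr12:22157103-22157123), miR-93 (chr12:22156894-22156916) and miR-25 (chr12:22156652-22156673) lay within 472 bp and inside the span of Mcm7. The miR-17-92 cluster lay on chromosome 15, plus strand, with miR-17 at chr15:98587861-98587883, miR-20a at chr15:98588318-98588340 and a copy of miR-19b at chr15:98588486-98588508. The third cluster, miR-106a-363, lay on chromosome X, minus strand, with miR-20b at chrX:137343239-137343261 and the other copy of miR-19b at chrX:137343070-137343092. It also held an identical copy of the miR-17-5p sequence, at chrX:137343615-137343637. The counts of miR-17-5p, miR-19b and the shared miR-20 probe therefore cannot be divided between chromosomes 15 and X. The miR-17-5p sequence differed from miR-20a at 2 of 23 positions and from miR-20b at 2 of 23, so reads of these near-identical miRNAs by the neighbouring probe are uncertain.

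Total miRNA counts were 36977 to 137746 per lane, and the 6 probes together took 0.495% to 0.856% of them. Levels are given as CPM, counts per 1000000 miRNA counts of the lane after TMM scaling. The background limit of each lane was set from its 8 negative control probes, at their mean and 2 SD more. This limit moved with the groups: it lay at 265 to 329.5 CPM in vehicle, 449.8 to 531 CPM in in vitro DOX, 495 to 575 CPM in age-matched controls, 352 to 683 CPM in in vivo DOX and 272 to 337 CPM in MI. Libraries MI 3, in vivo DOX 1 and in vitro DOX 3 stood apart from the other samples of their groups. Over the tested miRNAs, chi-square divided by its degrees of freedom was 2.04 to 3.95 within vehicle, within controls, between in vitro DOX 1 and 2, and between MI 1 and 2. It was 133 and 155 for in vitro DOX 3 against the others of its group, 59.7 and 115 for in vivo DOX 1 (13.5 between in vivo DOX 2 and 3), and 37.4 and 40.7 for MI 3. Values that rest on these libraries are given with and without them. The 5 cardiomyocyte miRNAs of the marker list (miR-1, miR-133a, miR-133b, miR-208 and miR-499) were all measured, with a summed level of 220316 to 354779 CPM, and the erythroid miRNAs miR-451 and miR-144 were above background in no lane. All in vitro DOX lanes were read at stage position 3 of the counter and all other lanes at position 4, so for that group treatment and stage position cannot be told apart.

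Within the miR-106b-25 cluster, miR-25 was measured far above background in all 15 lanes. In culture its level was 2345, 2262 and 2389 CPM in vehicle and 3491, 3261 and 3135 CPM in DOX. In hearts it was 1678, 1429.8 and 1638 CPM in age-matched controls, 2459.8, 3168 and 2160.0 CPM in in vivo DOX, and 2902, 3102 and 1906 CPM in MI. The age-matched controls were the lowest group and overlapped no other, and in vitro DOX was the highest and overlapped no neighbour. Between them came vehicle, then hearts given DOX, then MI, each overlapping the next.

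The first miRNA of the same cluster, miR-106b, shares the AAAGUGC seed and was near the limit of the assay. Its level was 530.4, 511 and 349 CPM in vehicle, with 76, 70 and 44 counts, and 213, 267 and 372 CPM in in vitro DOX, with 19, 21 and 37 counts. In hearts it was 495, 191 and 418 CPM in controls, 288, 219 and 149.5 CPM in in vivo DOX, and 357, 553 and 397 CPM in MI. It was above background in 3 of 3 vehicle lanes and 3 of 3 MI lanes. In the other groups no lane was, and only an upper bound is measured there. In MI the counts were 15, 43 and 20, against lane limits of 11.8, 21.1 and 17.0 counts. In controls they were 18, 12 and 25 against 19.6, 36.2 and 29.6, and in in vivo DOX 36, 16 and 9 against 43.9, 37.5 and 41.1. The MI counts thus overlapped those of the other hearts, and the MI limits were the lowest of the hearts in CPM. The lowest count, 9 in in vivo DOX 3, has a 95% Poisson interval of 4.12 to 17.1, which covers counting error only. In the order of means, from in vivo DOX (219 ± 69.5, SD, n = 3) through in vitro DOX, controls and MI up to vehicle (464 ± 99.5), every group overlapped its neighbour.

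The middle miRNA of the cluster, miR-93, was as low as miR-106b, and as recorded its groups came in another order. It lay at 356, 379.5 and 309.5 CPM in vehicle and at 438, 433 and 502 CPM in in vitro DOX, and these groups did not overlap. But in vitro DOX 1 and 2 lay below their own limits of 487 and 531 CPM, so only upper bounds are measured there. In hearts miR-93 lay at 358, 349.5 and 502 CPM in controls, 361, 357 and 415 CPM in in vivo DOX, and 547, 553 and 318 CPM in MI. It was above background in 8 of 15 lanes, 3 of them vehicle and 2 of them MI. All groups next to each other in the order of means overlapped.

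Among the miRNAs of the other clusters, the shared miR-20a and miR-20b probe differed most between the lanes of each DOX group, though not of the others. It read 1954, 1832 and 2238 CPM in vehicle and 1291, 1032 and 3175 CPM in in vitro DOX, where lanes 1 and 2 lay below all vehicle lanes and lane 3 above them. In hearts it read 1513, 1938 and 1839 CPM in controls, 2332, 1015 and 1047 CPM in in vivo DOX, and 2069, 2188 and 1589 CPM in MI. Lanes 2 and 3 of in vivo DOX lay below every other lane from hearts, and lane 1 lay above them all. The high lanes are the libraries in vitro DOX 3 and in vivo DOX 1 named above.

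The level of miR-19b was 782, 577 and 643 CPM in vehicle and 258, 280.2 and 593 CPM in in vitro DOX. It was 303, 461 and 552 CPM in controls, 377, 178 and 233 CPM in in vivo DOX, and 642, 734 and 437 CPM in MI. Again in vitro DOX 3 and in vivo DOX 1 were the highest of their groups. It was above background in 9 of 15 lanes: all vehicle and MI lanes and 1 lane in each other group.

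By contrast miR-17-5p, which gives the cluster its name, kept a narrow range. It was above background in all 15 lanes, at 914, 577 and 643 CPM in vehicle, 763, 713 and 1256 CPM in in vitro DOX, and 688, 906 and 919.5 CPM in controls. It was 1034, 782 and 930.5 CPM in in vivo DOX and 880.1, 785 and 913 CPM in MI. No neighbouring groups separated, and the means ran only from 711 ± 179 in vehicle to 915 ± 127 in in vivo DOX (SD, n = 3).

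**Figure D1:**
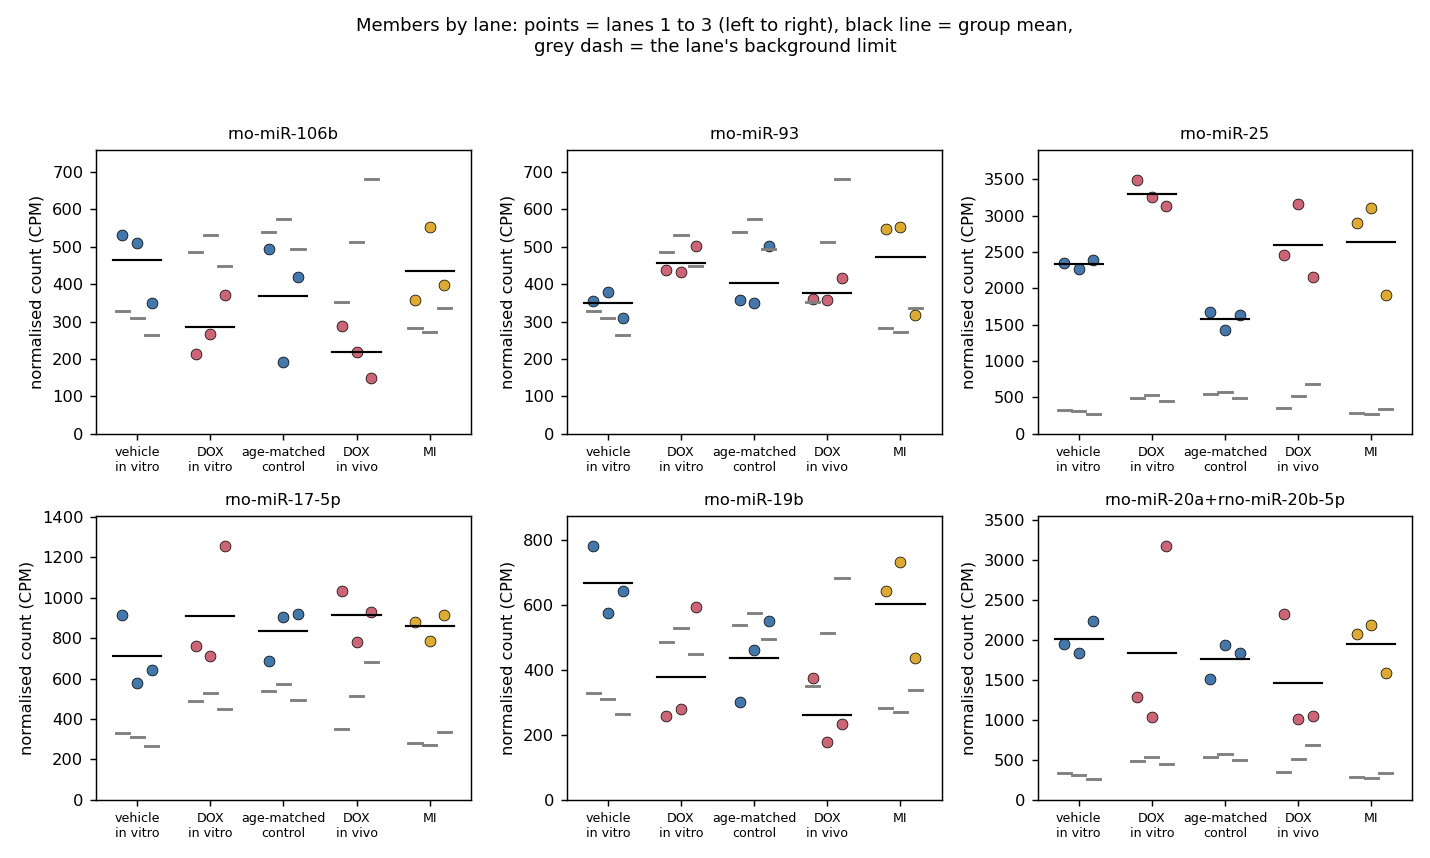
Level of each member in CPM (vertical axes, linear, from 0) in every lane of the 5 groups, with group means as black lines and each lane's background limit as a grey dash. The level of miR-25 lies above the limit in every lane and is lowest in the 3 age-matched controls. That of miR-106b lies above the limit only in vehicle and MI, the groups with the lowest limits.

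The first comparison asked how DOX in culture moved the members against vehicle. With all libraries none of the 6 passed edgeR's quasi-likelihood test at an adjusted p under 0.05, against 30.3% of the 109 tested miRNAs; 2 had an unadjusted p under 0.05, and DESeq2 called 2. The signs were mixed with the filter used, and with no filter on low counts all 6 were negative (miR-17-5p -0.15, miR-25 -0.058, miR-93 -0.15). The log2 fold change was -0.81 for miR-19b (SE 0.32, adjusted p = 0.0586) and -0.70 for miR-106b (SE 0.32, adjusted p = 0.0921). It was 0.50 for miR-25 (SE 0.26, adjusted p = 0.125) and 0.39 for miR-93 (SE 0.27), and for these 2 members the groups did not overlap, as was so for 46.8% of all tested miRNAs. Only 1 of 3 DOX lanes was above background for miR-93. The median over the members was 0.12, and over all tested miRNAs 0.27.

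Library in vitro DOX 3 decided this comparison. Without it, miR-19b (log2 fold change -1.31, adjusted p = 0.000701), miR-106b (-0.95, adjusted p = 0.0155) and the miR-20 probe (-0.79, adjusted p = 0.0206) were lower in DOX by edgeR. With MI 3, in vivo DOX 1 and in vitro DOX 3 all left out, these 3 stayed called (adjusted p = 2.26e-06, 0.00112 and 5.12e-05), and miR-25 was higher (log2 fold change 0.53, SE 0.17, adjusted p = 0.00266). The share called among all tested miRNAs was then 76.1%, so 4 of 6 members is not a high count. Of the 3 groups touched, that fit kept only in vitro DOX 1 and 2, in vivo DOX 2 and 3, and MI 1 and 2. The libraries were left out for standing apart in these same data. The p-values without them, here and below, do not allow for that choice and are descriptions. The negative controls stood higher in in vitro DOX (177 ± 26.6 CPM) than in vehicle (115 ± 4.9 CPM), the opposite way to miR-19b and miR-106b and the same way as miR-25 and miR-93. Among the marker lists, 1 of the 5 cardiomyocyte miRNAs was called, miR-133b, which was lower (log2 fold change -1.69, adjusted p = 0.000618). The others were at 0.26 (miR-1), 0.21 (miR-208), -0.70 (miR-133a) and -1.29 (miR-499). The leukocyte list had 5 probes on the panel (miR-142-3p, miR-142-5p, miR-223, miR-150 and miR-146a). Only miR-150 and miR-146a were above background often enough to be tested, and 1 of the 5 was above background in no lane. The list summed to 8058 to 40180 CPM in DOX and 9968 to 10948 CPM in vehicle. Of its 2 tested miRNAs 1 was higher, miR-150 (log2 fold change 1.75, adjusted p = 0.0468 by edgeR). The fibroblast list had 1 of 3 higher and 1 lower, and the endothelial miR-126 did not pass. The smooth muscle list (miR-143 and miR-145) had 1 of 2 lower, miR-143 (log2 fold change -1.34, adjusted p = 0.00504). Their part in the members' values was not tested.

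The second comparison set hearts after repeated DOX injection against age-matched controls. None of the 6 members passed edgeR's test, against 3.67% of all tested miRNAs; 1 had an unadjusted p under 0.05, and DESeq2 called 1, miR-25. Its log2 fold change was 0.72 (SE 0.27, adjusted p = 0.0962), the 3 DOX lanes lay above the 3 controls, and such separation was found for 33.9% of tested miRNAs. With housekeeping scaling its sign turned (-0.024). The values were -0.72 for miR-19b (SE 0.37, adjusted p = 0.214), -0.64 for miR-106b (SE 0.37, adjusted p = 0.254) and -0.26 for the miR-20 probe (SE 0.36). The other two, miR-17-5p and miR-93, lay at 0.12 and -0.11. The median was -0.18 over the members and 0.0049 over all tested miRNAs. Marker lists stood apart here too: the leukocyte list summed to 13741 to 24383 CPM in DOX and 5656 to 5868 CPM in controls, and the endothelial miR-126 was at 22364 to 39485 CPM against 20104 to 22102 CPM, though none of their tested miRNAs passed edgeR. The fibroblast list overlapped (2758 to 4767 against 4373 to 4734 CPM). So did the smooth muscle list (54900 to 104746 against 52586 to 60285 CPM), with 0 of 2 called. Of the 5 cardiomyocyte miRNAs 1 was called, miR-133b, which was lower (log2 fold change -1.33, adjusted p = 0.0229). The others were at 0.01 (miR-1), -0.10 (miR-208), -0.71 (miR-133a) and -0.77 (miR-499). Their part in the members' values was not tested.

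Leaving out in vivo DOX 1 alone called none, with miR-19b at -1.14 (adjusted p = 0.0514) and miR-25 at 0.76 (adjusted p = 0.0545). With the 3 libraries left out together, edgeR called 4 members here too: miR-19b lower (-1.16, adjusted p = 0.00259), miR-106b lower (-0.89, adjusted p = 0.0355), the miR-20 probe lower (-0.79, adjusted p = 0.000569) and miR-25 higher (0.77, adjusted p = 0.000307). Of all tested miRNAs 48.6% were called in that fit. The 2 remaining in vivo DOX lanes and all control lanes were below background for miR-106b. The difference between the DOX effect in hearts and that in culture was tested itself: 0 of 6 members passed edgeR (0.917% of all tested miRNAs did), 0 had an unadjusted p under 0.05, and DESeq2 called 0. Its values ran from -0.51 for miR-93 (SE 0.40) to 0.22 for miR-25 (SE 0.38).

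**Figure D2:**
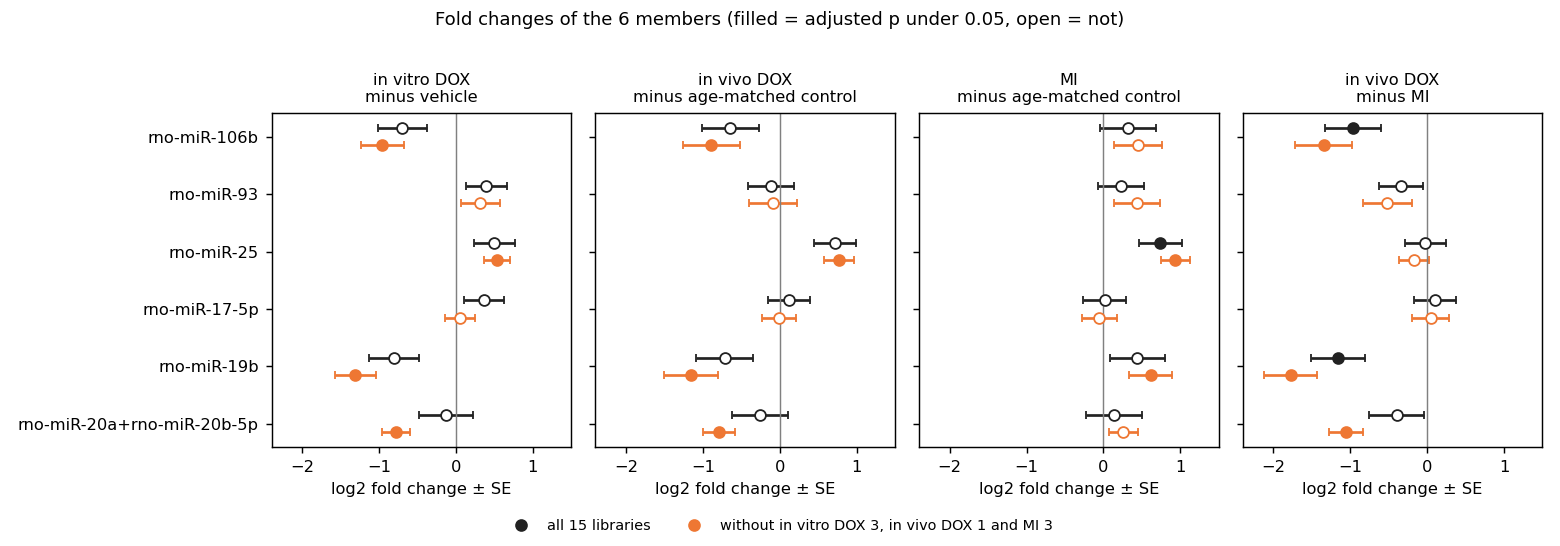
Log2 fold change of each member (horizontal axes, bars ± SE from edgeR) in 4 comparisons, from all 15 libraries and with MI 3, in vivo DOX 1 and in vitro DOX 3 left out; filled points have an adjusted p under 0.05. In both DOX comparisons miR-106b, miR-19b and the miR-20 probe lie left of 0 and miR-25 right of it. These 4 are filled only without the 3 libraries, which were left out for standing apart in these same data. The sign of miR-25 turned in culture with no filter and in hearts with housekeeping scaling, and that of the miR-20 probe in hearts with no filter and with positive-control scaling.

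The third comparison set hearts 4 weeks after MI against the same age-matched controls. miR-25 was higher, 1.67-fold (log2 fold change 0.74, SE 0.27, adjusted p = 0.0395 by edgeR), with all 3 MI lanes above all 3 controls. It was the 1 member called and the 1 member whose groups separated. Of all tested miRNAs 37.6% were called and 57.8% separated. The call was close to its threshold: it was lost without any 1 of the 3 controls or of MI 1 or 2 (adjusted p = 0.0577 to 0.181), and it held without MI 3 (log2 fold change 0.93, adjusted p = 0.0125). The remaining 5 members had log2 fold changes above 0, from 0.02 for miR-17-5p to 0.44 for miR-19b (SE 0.35, adjusted p = 0.362), and did not pass. The median was 0.28 over the members and -0.03 over all tested miRNAs.

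With the 3 libraries left out, miR-25 (0.94, SE 0.19, adjusted p = 7.88e-06) and miR-19b (0.61, SE 0.28, adjusted p = 0.0434) were called higher, when 62.4% of all tested miRNAs were called. In the authors' deposited table, made from quantile-normalized values, miR-19b was the only member with a p under 0.05 for MI (group means 45.5 in controls and 71.8 in MI, p = 0.0308). For miR-25 the authors' deposited table gives 211 in controls and 202 in MI (p = 0.624), the opposite order to the one found here. Housekeeping scaling brought miR-25 in MI down to a log2 fold change of 0.19 (adjusted p = 0.727), so its rise depends on the scale.

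Some markers of other cells moved with MI. The endothelial miRNA miR-126 was at 20104 to 22102 CPM in controls and 46623 to 131043 CPM in MI. The fibroblast list summed to 4373 to 4734 CPM in controls and 9551 to 13398 CPM in MI, with 3 of its 3 tested miRNAs higher by edgeR. The leukocyte list summed to 5656 to 5868 CPM in controls and 5361 to 17195 CPM in MI, with 1 of its 2 tested miRNAs higher. The smooth muscle list overlapped (52586 to 60285 CPM in controls and 46881 to 62628 CPM in MI), with 0 of 2 called. The cardiomyocyte list had 2 of 5 lower and none higher. The part of these other cells in the level of miR-25 was not tested, and in such bulk RNA more cells of a type and more miRNA per cell cannot be told apart.

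The fourth comparison set the failing hearts against each other. Compared with MI, in vivo DOX had less miR-19b, 2.23-fold lower (log2 fold change -1.16, SE 0.35, adjusted p = 0.0147), and less miR-106b, 1.95-fold lower (-0.96, SE 0.36, adjusted p = 0.0379). All 3 DOX lanes lay below all 3 MI lanes for both. These 2 of 6 members stood against 32.1% of tested miRNAs called and 38.5% separated. The first is encoded on chromosomes 15 and X and the second on chromosome 12, and their seeds differ. The log2 fold change was -0.02 for miR-25 (SE 0.27) and 0.10 for miR-17-5p (SE 0.27), neither past the test, and the median over the members was -0.37 against 0.04 over all tested miRNAs.

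For miR-106b the DOX level is a bound, since no DOX lane was above background, and for miR-19b only 1 was. Only vehicle and MI lanes of miR-106b were above background, so it entered the tests through them, and MI is the higher side here. The negative controls were at 171 ± 45.4 CPM in in vivo DOX and 101 ± 7.85 CPM in MI, the opposite order to both members. Neither call was firm against single libraries: miR-19b was lost without in vivo DOX 2 or 3 or MI 2 (adjusted p = 0.0529 to 0.0934), and miR-106b without in vivo DOX 2 or 3 or MI 1 or 2 (adjusted p = 0.0541 to 0.202). Without in vivo DOX 1, the miR-20 probe was called as well (-0.92, adjusted p = 0.0427). With the 3 libraries left out, miR-19b (-1.77), miR-106b (-1.34) and the miR-20 probe (-1.05) were lower, with 66.1% of all tested miRNAs called. The endothelial miR-126 (22364 to 39485 CPM in in vivo DOX) and the fibroblast list (2758 to 4767 CPM) were below their MI ranges too. The smooth muscle list overlapped (54900 to 104746 CPM in in vivo DOX and 46881 to 62628 CPM in MI). Of its 2 miRNAs 1 was lower, miR-143 (-1.22, adjusted p = 0.00937). The leukocyte list overlapped as well (13741 to 24383 CPM in in vivo DOX and 5361 to 17195 CPM in MI), with 0 of 2 called. So did the cardiomyocyte list (252684 to 352363 CPM in in vivo DOX and 220316 to 312479 CPM in MI). Of its 5 miRNAs 1 was higher in in vivo DOX, miR-208 (0.91, adjusted p = 0.0222 by edgeR). The part of these markers in the 2 members was not tested.

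Cultured vehicle cells and cells straight from control hearts, the 2 reference groups, were also compared. No member passed edgeR (18.3% of all tested miRNAs did), 1 had an unadjusted p under 0.05, and DESeq2 called 1, miR-25. The groups did not overlap for miR-25 (log2 fold change 0.56, SE 0.27, adjusted p = 0.16) and miR-19b (0.57, SE 0.33, adjusted p = 0.256), both higher in vehicle, while 67% of all tested miRNAs separated. The median over the members was 0.28, and over all tested miRNAs -0.11. Some markers of other cells were higher in vehicle by edgeR, among them miR-126 (log2 fold change 1.70, adjusted p = 0.000447). So were 2 of 3 tested fibroblast miRNAs (miR-199a-3p at 1.39 and miR-199a-5p at 1.19). Of the 2 tested leukocyte miRNAs 1 was higher, miR-146a (1.49, adjusted p = 0.00611 by edgeR). The smooth muscle list lay the other way, at 46348 to 50709 CPM in vehicle and 52586 to 60285 CPM in controls, with 0 of 2 called. The cardiomyocyte list was lower in vehicle too, at 281067 to 295120 CPM against 352362 to 354779 CPM in controls, with 0 of 5 called. Their part in the members' values was not tested.

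The miR-106b/93/25 cluster was then set against the other 3 probes by the ratio of their geometric mean counts within each lane, which no lane scaling enters. Count ratios between different probes compare lanes, not the abundance of the molecules. The log2 ratio was -0.44 ± 0.25 in vehicle and -0.09 ± 0.51 after DOX in culture (SD, n = 3). In hearts it was -0.51 ± 0.50 in controls, -0.20 ± 0.44 after DOX and -0.32 ± 0.17 in MI. The ranges of all groups overlapped. But miR-106b, miR-93 and miR-19b, which enter these means, were above background in only 6, 8 and 9 of 15 lanes. Ratios of lanes where any of them was below background are not measured exactly.

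Within the miR-106b-25 cluster the counts of miR-25 and miR-106b were set against each other. The count of miR-25 was 4.42, 4.43 and 6.84 times that of miR-106b in vehicle and 16.4, 12.2 and 8.43 times in in vitro DOX. It was 3.39, 7.50 and 3.92 times in controls, 8.53, 14.4 and 14.4 times in in vivo DOX, and 8.13, 5.60 and 4.80 times in MI. As recorded, the 6 DOX lanes lay at 8.43 to 16.4 and the 9 others at 3.39 to 8.13. But miR-106b was above background in no DOX lane and no control lane, so the ratios there are not measured exactly and the order of these lanes is not established. The nearest of the other lanes, MI 1, rests on 15 counts of miR-106b (95% Poisson interval 8.4 to 24.7). This ratio was picked out after its values were seen and is a description, with no test. The ratio of miR-25 to miR-93 had another order as recorded: the controls were lowest, at 3.27 to 4.69, and every other group lay above them, from 5.20 to 8.88. But miR-93 was above background in only 1 of 3 lanes of the controls and of each DOX group, and in 2 of 3 MI lanes. These ratios are therefore not measured exactly either. The negative control probes stood highest in the age-matched controls (209 ± 21.6 CPM).

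Such separations are common in these data. Of the 15 pairs of members, 7 had count ratios that did not overlap between in vitro DOX and vehicle, against 44% of the 5886 pairs of all tested miRNAs. The same was so for 4 of 15 pairs between in vivo DOX and controls (34.9% of all pairs), 2 of 15 between MI and controls (56.7%), and 6 of 15 between in vivo DOX and MI (42.2%). As shares of 15, the members' counts lay near the background for in vitro DOX and for in vivo DOX against MI, and below it for the comparisons with control hearts. As recorded, the pair of miR-25 and miR-106b separated in 3 of these 4 comparisons, as did the pairs of miR-19b with miR-25 and with miR-17-5p, with miR-106b and miR-19b below background in many of these lanes.

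**Figure D3:**
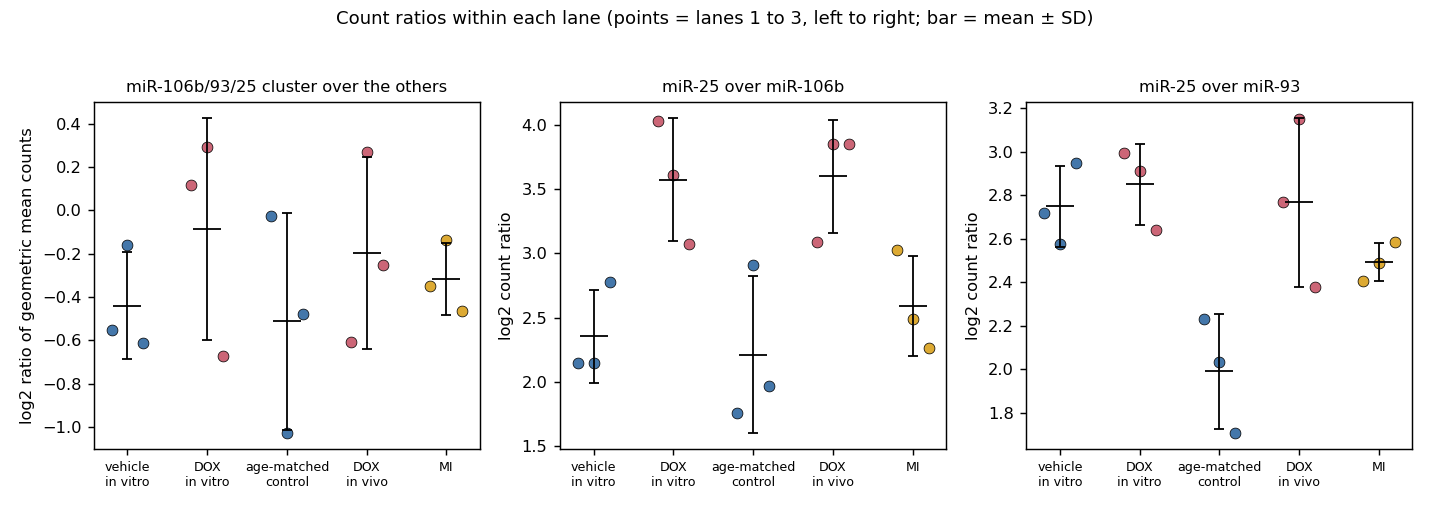
Log2 ratio of counts within each lane (vertical axes), for the miR-106b/93/25 cluster over the other 3 probes, for miR-25 over miR-106b and for miR-25 over miR-93, with the mean ± SD of each group (n = 3). The cluster ratio overlaps between all groups, and its points are not exact where miR-106b, miR-93 or miR-19b was below background. For miR-25 over miR-106b the DOX lanes are drawn highest, but miR-106b was above background in none of the DOX or control lanes, so those points are not exact. Many points of miR-25 over miR-93 are not exact either, as miR-93 was above background in 8 of 15 lanes.

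The likeness of the members was also measured across the 15 lanes. The distance used was the root mean square difference of log2 CPM, each member centred on its own mean. The closest members were miR-17-5p and miR-93 (0.32), which have a common seed, then miR-19b and the miR-20 probe (0.37) and miR-25 and miR-93 (0.37), each from shared clusters. The farthest apart were miR-19b and miR-25 (0.79), and next to them miR-25 and miR-106b (0.71), which lie in the same cluster. Among miRNAs with a common seed, miR-17-5p and miR-106b differed by 0.67. As recorded, neither a shared cluster nor a shared seed thus went with a small distance in every pair. But miR-106b, miR-93 and miR-19b were above background in only 6, 8 and 9 of 15 lanes. The distances of pairs that hold any of them are therefore not measured exactly. The values of miR-17-5p and miR-93 lay only 0.27 and 0.27 from their own means by the same measure, so the small distance between them is no closer than either lies to a flat line.

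Other miRNAs of the panel came closer to some members than their cluster mates did. By the same distance over the 15 lanes, among 55 non-members above background in every lane, miR-25 was nearest to let-7e (0.25), miR-23a (0.29) and miR-151 (0.31). The miR-20 probe was nearest to miR-152 (0.25), miR-378 (0.27) and miR-27a (0.28), and miR-19b to miR-27a (0.26), miR-152 (0.31) and let-7i (0.32). For miR-106b the same 3 miRNAs as for miR-19b were nearest, but farther off, at 0.41 to 0.44. The nearest to miR-17-5p were miR-107 (0.28), miR-99a (0.28) and miR-1 (0.31), and to miR-93 miR-16 (0.29), miR-107 (0.32) and miR-100 (0.36), none of them closer than the flat line of these members' own means. The lanes share depth and the libraries that stand apart, and miR-106b, miR-93 and miR-19b were often below background, so these distances are descriptions.

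**Figure D4:**
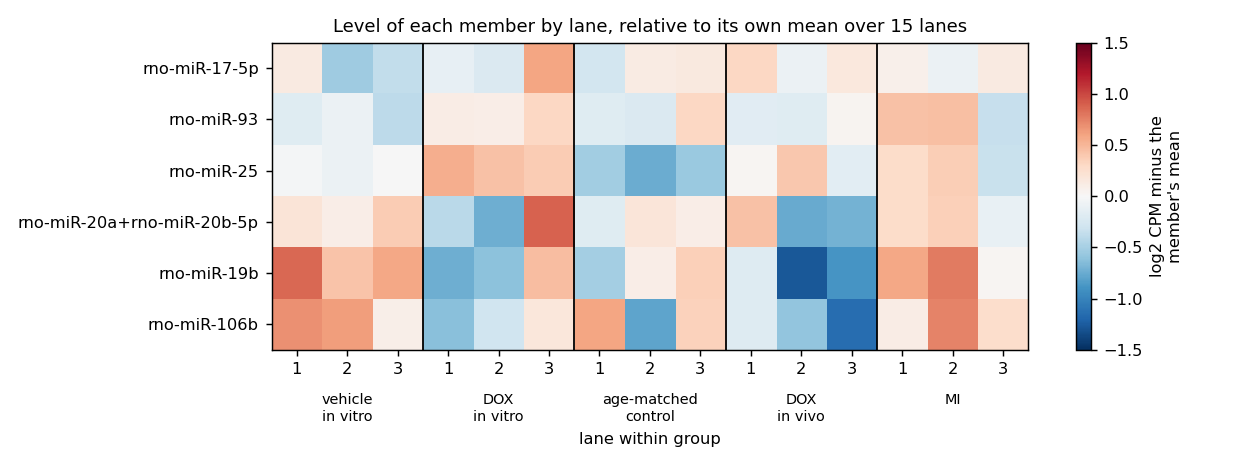
Log2 CPM of each member in the 15 lanes minus its own mean over them (colour scale), with lanes 1 to 3 of each group side by side. The miR-20 probe, miR-19b and miR-106b are low in in vivo DOX 2 and 3 and in in vitro DOX 1 and 2. Low values are also drawn for miR-106b in age-matched control 2 (191 CPM) and for miR-19b in age-matched control 1 (303 CPM). In the named DOX lanes and these control lanes, miR-106b and miR-19b were below background. The level of miR-25 is low in the 3 age-matched controls.

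Most other products of these clusters were below detection. The panel held 7 further probes of the 3 clusters: miR-17-1-3p, miR-17-2-3p, miR-18a, miR-19a, miR-20b-3p, miR-92a and miR-363. None was above background in any lane, with 0 to 25 counts, so no level of these miRNAs was detectable at this depth. Of these, miR-92a and miR-363 have the seed of miR-25, as have miR-92b, also never above background, and miR-32.

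The 1 measured seed relative, miR-32, is encoded apart from the clusters, on chromosome 5. Its level was 311 ± 35.9 CPM in vehicle and 363.4 ± 74.4 CPM after DOX in culture (SD, n = 3). In hearts it was 436 ± 68.2 CPM in controls, 541 ± 177 CPM after DOX and 241 ± 28.2 CPM in MI. Its log2 fold change in MI was -0.83 (SE 0.34, adjusted p = 0.0551), where that of miR-25 was 0.74, and the difference between the miRNAs was not tested. In the DOX comparisons miR-32 did not pass (0.22 in culture and 0.28 in hearts), with the same sign as miR-25. It was higher in in vivo DOX than in MI (1.11, SE 0.32, adjusted p = 0.0111), where miR-25 was at -0.02. It was above background in all vehicle and in vivo DOX lanes, in 1 control lane and in no in vitro DOX or MI lane. The MI level is thus only an upper bound. The negative controls were also lower in MI (101 ± 7.85 CPM) than in control hearts (209 ± 21.6 CPM) and in vivo DOX (171 ± 45.4 CPM), the same way as miR-32.

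A list of 11 other miRNAs tied to cell cycle and growth (miR-15b, miR-16, miR-195, miR-322, miR-497, the miR-34 family, miR-221, miR-222 and miR-21) was read beside the members. Of its 6 tested miRNAs, 5 were higher and 1 lower in MI than in controls, with a median log2 fold change of 0.90. The 5 were miR-15b (0.98), miR-16 (0.68), miR-195 (1.65), miR-322 (2.02) and miR-21 (0.81), and the 1 was miR-34a (-0.98), a p53 target. In in vivo DOX 0 of the 6 were called, 1 of them was higher and 1 lower in in vitro DOX, and 3 were lower in in vivo DOX than in MI. Of all tested miRNAs 37.6%, 3.67%, 30.3% and 32.1% were called in these comparisons in turn, so the counts for the DOX comparisons with their references lay near the background. The clusters' members, with 1 of 6 called in MI, had a lower median there (0.28); the difference was not tested.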

How the data were processed

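Per the file headers, the authors deposited a worksheet of nCounter output with 4 sheets and tables of 3 group comparisons. The first sheet holds barcode counts per probe, whole numbers carried here under the unit expected counts, and was the base of all fits. The second deposited sheet holds expected counts that the authors corrected for 3 probes and raised from 0 to 1. The fourth holds a signal that the authors scaled so that lanes have equal miRNA sums. The authors' tables give group means as signal, a p-value and a score (t statistic). The assay's labels name miRBase release 17 and 423 miRNAs; 420 probes were analysed here. The software behind them is not given in the sources used.

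A miRNA was tested if above background (mean plus 2 SD of 8 negative controls) in at least 3 of 15 lanes: 109 passed, 58 in every lane. After TMM scaling, all 15 lanes entered 1 edgeR model (version 4.0.16, R 4.3.3; robust quasi-likelihood) with a mean for each group. Adjusted p-values are Benjamini-Hochberg over all tested miRNAs of a comparison, and a call is an adjusted p under 0.05. DESeq2 1.42.0 and limma 3.58.1 were alternatives. The procedure was tested on simulated data in which only MI was changed and no library stood apart. It was therefore not tested on libraries such as in vitro DOX 3. The members, the lists and the libraries left out were chosen with earlier results of these data known. The text names all members, the other products of their clusters, panel miRNAs with a member's seed and the 3 nearest patterns of each member.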

Additional observations from a re-analysis of the deposited data

How the results depend on the processing

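Of 702 single-member values under the alternatives (36 values, each up to 25 times), 572 kept their direction and side of the threshold, 38 newly passed the test, 20 no longer did, and 72 changed sign; no value that changed sign was called before or after. The scaling moved the median log2 fold change of all tested miRNAs for MI against controls from -0.03 with TMM to 1.26 with positive-control scaling and -0.63 with housekeeping scaling. Signal over background limits miR-106b, miR-93 and miR-19b, above background in 6, 8 and 9 of 15 lanes. The cause of each change below was not tested, except that leaving out libraries or miRNAs changes what is fitted.

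The number of members called for in vitro DOX, 0 of 6, became 2 with DESeq2, 2 with RLE scaling, 2 with no filter, 1 with limma on the authors' sum-normalized values and 4 without MI 3, in vivo DOX 1 and in vitro DOX 3; leaving out 1 sample gave 0 to 3. For in vivo DOX, 0 became 1 with DESeq2, 2 with housekeeping scaling (both lower), 1 with only miRNAs above background in all lanes and 4 without the 3 libraries. For MI, 1 became 5 with positive-control scaling, 0 with housekeeping scaling, 0 with only miRNAs above background in all lanes, 0 with the authors' corrected counts and 2 without the 3 libraries; leaving out 1 sample gave 0 to 1. For in vivo DOX against MI, 2 became 1 with housekeeping scaling, 0 with only miRNAs above background in all lanes, which drops miR-19b and miR-106b, 1 with background subtracted, 1 with the authors' corrected counts and 1 with only the groups compared; leaving out 1 sample gave 0 to 3. For vehicle against controls, 0 became 1 with DESeq2, 1 with positive-control scaling, 2 with no filter, 2 with only the groups compared and 2 without the 3 libraries.

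With the replicate number as a block, 0 members were called for MI in place of 1 (miR-25, adjusted p = 0.0558), and the count was unchanged in the other 5 comparisons. The labels do not tie same-numbered samples together, and the correlations of their deviations ran from -0.26 to 0.23, with no comparison in which all 3 were above 0.1, so the samples share only a number.

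Sign changes were as follows, as log2 fold changes. With no filter, in vitro DOX gave -0.15 for miR-17-5p, -0.058 for miR-25 and -0.15 for miR-93, and in vivo DOX gave 0.064 for the miR-20 probe and 0.12 for miR-93. In vivo DOX against MI gave -0.26 for miR-17-5p, and vehicle against controls 0.44 for miR-17-5p and 0.46 for miR-93. The difference of the DOX effects gave 0.52 for miR-17-5p, 0.66 for the miR-20 probe and 0.27 for miR-93. With housekeeping scaling, in vivo DOX gave -0.54 for miR-17-5p and -0.024 for miR-25. MI gave -0.54 for miR-17-5p, -0.063 for miR-19b, -0.40 for the miR-20 probe, -0.29 for miR-93 and -0.22 for miR-106b. In vivo DOX against MI gave -4.5e-05 for miR-17-5p, vehicle against controls -0.22 for the miR-20 probe, and the difference of the DOX effects -0.19 for miR-19b, -0.20 for miR-25 and -0.28 for miR-106b. With positive-control scaling, in vivo DOX gave 0.36 for the miR-20 probe and 0.29 for miR-93, in vivo DOX against MI -0.75 for miR-17-5p, and vehicle against controls 0.54 for miR-17-5p and 0.57 for miR-93. The difference of the DOX effects gave 0.47 for miR-17-5p, 0.63 for the miR-20 probe and 0.24 for miR-93. With only miRNAs above background in all lanes, MI gave -0.12 for miR-17-5p and -0.012 for the miR-20 probe, in vivo DOX against MI 0.20 for miR-25, and the difference of the DOX effects 0.023 for the miR-20 probe. That difference for miR-17-5p and the miR-20 probe was 0.041 and 0.16 with DESeq2 and 0.043 and 0.16 with RLE scaling. For miR-17-5p, MI gave -0.0087 with the authors' corrected counts, -0.027 with only the groups compared and -0.054 without the 3 libraries, where in vivo DOX gave -0.0047. In vivo DOX against MI gave -0.068 for miR-17-5p with background subtracted, -0.0071 with limma on the authors' sum-normalized values, and 0.083 for miR-25 with the authors' corrected counts. Vehicle against controls gave 0.15 for miR-93 with background subtracted.

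Leaving out 1 sample at a time changed a sign for 11 values. The ranges were -0.79 to 0.16 for the miR-20 probe in in vitro DOX, -0.055 to 0.22 for miR-17-5p and -0.24 to 0.089 for miR-93 in in vivo DOX, and -0.056 to 0.089 for miR-17-5p and -0.024 to 0.58 for miR-106b in MI. For in vivo DOX against MI they were -0.0031 to 0.20 for miR-17-5p and -0.21 to 0.11 for miR-25. For the difference of the DOX effects they were -0.46 to 0.065 for miR-17-5p, -0.33 to 0.60 for miR-19b, -0.65 to 0.54 for the miR-20 probe and -0.29 to 0.37 for miR-106b.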
